A study of Homo sapiens with 4 samples.

Results

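The immediate early transcription factors examined here are 10 genes, FOS, FOSB, JUN, JUNB, JUND, EGR1, IER2, KLF4, KLF6 and MYC, chosen by gene name out of 58735 genes in the deposited tables. The series asked which genes differ after the treatments in OMM2.3, a long-established line grown out of a uveal melanoma that had spread to the liver, and holds 4 RNA-seq libraries, 1 per group. Cells had been given CCCP, DHA, both compounds together (here the combination), or neither (control), and all were grown in medium with fetal bovine serum. CCCP is a protonophore that collapses the mitochondrial membrane potential. What DHA stands for is not spelled out in the labels, and the sources used here give no dose, no time, no vehicle for the control and no word on pooling of cultures.

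Immediate early genes are transcribed within minutes of a stimulus, such as a growth factor, serum or stress, without the need for new protein synthesis, and their mRNAs are mostly short-lived. Products of the FOS and JUN families pair through leucine zippers to form AP-1, a dimeric activator of genes for growth, invasion and stress responses. EGR1, KLF4 and KLF6 bind GC-rich DNA through zinc fingers, IER2 is a small nuclear regulator, and MYC pairs with MAX to drive genes of growth and ribosome production. In uveal melanoma, activating mutations of the G protein subunits GNAQ or GNA11 feed into protein kinase C and ERK signalling, a pathway that induces several of these genes in other settings.

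The members are compact genes. Their spans in GENCODE 29 had a median of 4160 bases and ran between 1820 bases for JUNB and 9286 for KLF6, against a median of 33452.5 bases for 10896 protein-coding genes that reached 1 FPKM in at least 1 library. Exons made up a median of 79.7% of the span in the members and 15.5% in those genes, and JUN, JUNB and JUND, 3 of 10 members, have no intron, as 237 of the 10896 genes do.

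The promoter windows below are shown for the 3 of the 8 members at 1 FPKM or more whose levels stood furthest apart between libraries (JUNB, EGR1 and KLF4) and for JUND, whose level stayed within a narrow range. They are RefSeq sequence on GRCh38.p14 and hold 250 bases before and 50 after the annotated start, 300 bases each, 5′ to 3′ on the gene's strand. Capitals mark matches to the TATA box TATAAA in JUNB, to the cyclic AMP response element TGACGTCA in JUND, to the CArG box (the DNA site of serum response factor, CC, then A or T bases, then GG) in EGR1, and to the E-box CACGTG in KLF4. JUNB lies at chr19:12791236-12791535 on the plus strand, JUND at chr19:18281573-18281872 on the minus strand, EGR1 at chr5:138465229-138465528 on the plus strand and KLF4 at chr9:107489720-107490019 on the minus strand.

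JUNB: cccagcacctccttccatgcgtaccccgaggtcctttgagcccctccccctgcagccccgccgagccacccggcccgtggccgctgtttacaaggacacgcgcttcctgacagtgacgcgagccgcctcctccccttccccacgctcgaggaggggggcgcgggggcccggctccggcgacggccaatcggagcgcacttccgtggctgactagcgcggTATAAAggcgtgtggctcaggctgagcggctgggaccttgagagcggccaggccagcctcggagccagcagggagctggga

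JUND: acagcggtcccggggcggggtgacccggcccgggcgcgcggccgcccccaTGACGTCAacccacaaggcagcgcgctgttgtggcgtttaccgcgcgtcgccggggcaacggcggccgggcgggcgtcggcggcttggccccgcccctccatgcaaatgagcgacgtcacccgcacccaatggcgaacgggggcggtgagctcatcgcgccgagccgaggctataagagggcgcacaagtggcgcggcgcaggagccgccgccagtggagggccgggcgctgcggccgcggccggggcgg

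EGR1: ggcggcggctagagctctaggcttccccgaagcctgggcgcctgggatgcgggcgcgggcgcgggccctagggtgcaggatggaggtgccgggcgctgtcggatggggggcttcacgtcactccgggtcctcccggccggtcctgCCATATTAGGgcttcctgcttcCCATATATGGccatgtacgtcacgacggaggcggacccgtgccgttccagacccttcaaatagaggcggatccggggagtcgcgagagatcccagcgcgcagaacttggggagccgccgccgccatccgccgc

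KLF4: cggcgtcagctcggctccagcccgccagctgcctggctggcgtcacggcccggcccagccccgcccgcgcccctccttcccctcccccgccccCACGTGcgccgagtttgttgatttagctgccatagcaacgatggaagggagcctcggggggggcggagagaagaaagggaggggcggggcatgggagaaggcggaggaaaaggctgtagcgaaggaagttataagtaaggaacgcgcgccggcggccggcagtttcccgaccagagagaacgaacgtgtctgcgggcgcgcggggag

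Windows of 9 members could be read for 10 motifs on both strands. The pair of CArG boxes in EGR1 began 105 and 83 bases before the start, EGR1 was the only 1 of the 9 members with such a box, and 1.29% of all 27305 RefSeq windows and 1.10% of 8765 windows of measured protein-coding genes held one. The core TGACG of the cyclic AMP response element, left in lower case except within the JUND match, was present in 8 of 9 windows (all but KLF6), against 25.0% of all windows and 35.6% of those of measured genes. The whole element TGACGTCA, which contains that core on each strand, was found in JUND alone among the 9, against 1.98% and 3.49%. TATAAA was present in FOS, FOSB and JUNB, against 12.0% and 4.92%. CACGTG was present in KLF4 and KLF6 (7.43% and 10.5%), the EGR site GCGNGGGCG in EGR1, KLF4 and KLF6 (9.28% and 16.3%), CCAAT in JUN, JUNB, JUND and KLF6 (35.7% and 36.6%), and the GC box GGGCGG, which can overlap the EGR site, in 7 of 9 (44.6% and 72.4%). Neither the AP-1 site TGANTCA (7.76% and 4.06%) nor the ATF4 element TGATGNAA (3.67% and 1.54%) occurred in the 9 windows. These are matches of letters in a short window and not measured binding.

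Levels are FPKM, that is, fragments per kilobase of a gene's exons after scaling for library size, so they can be set against each other between genes. FPKM multiplied by exon length gave back whole reads, and every interval below is a 95% interval made from those reads that covers counting error only. Reads summed over genes were 16942245 with CCCP, 17347602 with DHA, 16900411 with the combination and 18937286 in control. A gene was taken as measured at 1 FPKM or more in at least 1 library, which 13678 genes and 8 of the 10 members met. FOS and FOSB stayed under that level in every library, and EGR1 met it only with CCCP and in control. In bulk RNA, fewer expressing cells and less RNA per cell cannot be told apart. Since there was 1 library per group, no spread between cultures was available, and the ratios describe these libraries.

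The label of the line was checked against its markers. Of 15 melanocyte lineage genes, MITF, PMEL and GPNMB were measured, and TYR, PAX3, KIT, EDNRB, OCA2 and SLC45A2 had 0 reads in all libraries. The summed lineage level was 44.7 FPKM with CCCP, 36.5 with DHA, 29.9 with the combination and 45.5 in control. None of 7 leukocyte and 5 endothelial markers reached 1 FPKM (highest values 0.0952 and 0.164 FPKM). Of 7 fibroblast markers, COL1A1, PDGFRB and FAP were measured, with a summed level of 20.3 FPKM with CCCP, 18.6 with DHA, 8.97 with the combination and 32.5 in control, and of 6 epithelial markers KRT8 and KRT18 were measured, with sums of 298, 344, 267 and 375 FPKM in the same order. The summed lineage, fibroblast and epithelial levels were lowest with the combination, the library in which KLF4 and MYC were highest, and their part in the members' values was not tested.

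Among the 10 genes, MYC and JUN had the highest levels in every library and FOS the lowest. Their order was MYC, JUN, JUND, JUNB, KLF6, IER2, KLF4, EGR1, FOSB and FOS with DHA and in control, and in both of those libraries the counting intervals of MYC and JUN overlapped while all other neighbours lay apart. With CCCP, JUN stood above MYC and KLF6 above JUNB, and neighbours KLF4 and EGR1, and FOSB and FOS, overlapped. With the combination KLF4 passed IER2, and EGR1 and FOSB overlapped. Among protein-coding genes ranked by level, MYC was at rank 500 with CCCP, 401 with DHA, 268 with the combination and 497 in control, and KLF4 was at 9079, 6062, 3779 and 8152 in the same order.

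**Figure D1:**
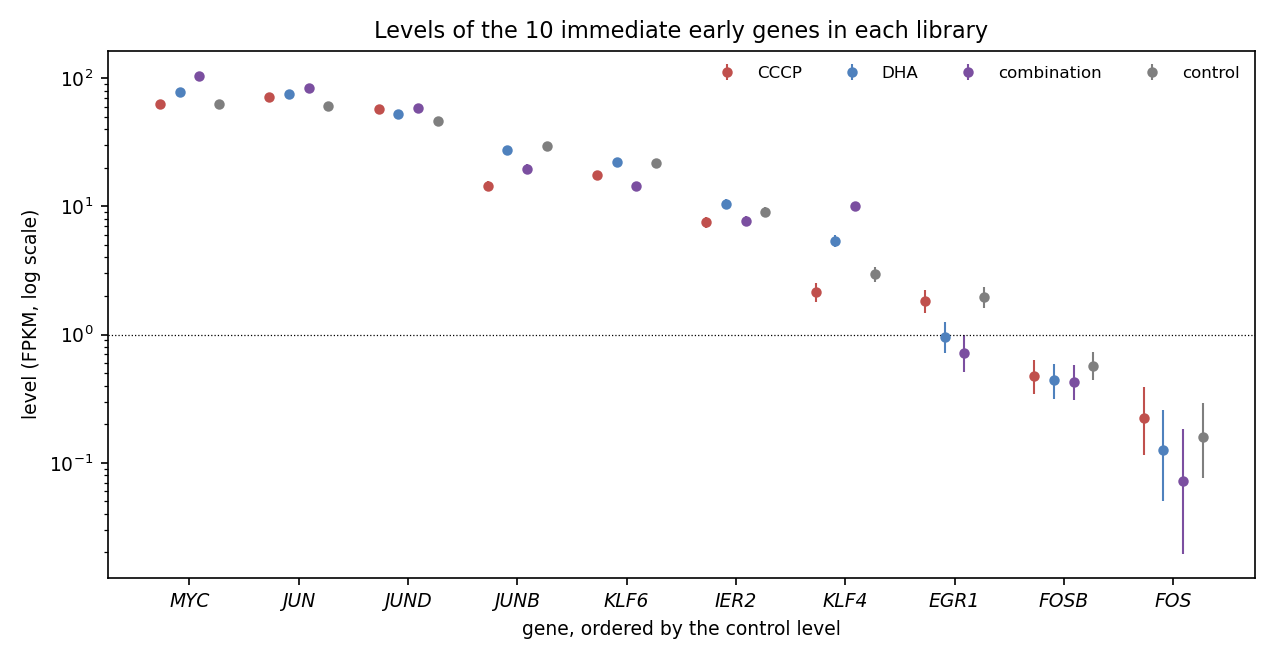
Levels of the 10 genes in FPKM on a log axis, 1 point per library (CCCP, DHA, combination, control), with exact 95% Poisson intervals of the reads as bars and 1 FPKM dotted. KLF4 spans 2.14 to 10.04 FPKM and EGR1 0.720 to 1.95 FPKM, while FOS and FOSB lie below 1 FPKM throughout.

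FOS, the founding FOS-family partner of AP-1, was close to silent. It had 0.222 FPKM with CCCP, 0.125 with DHA, 0.0716 with the combination and 0.159 in control, which rest on 12, 7, 4 and 10 reads. The ratios to control were 1.40 (0.554 to 3.61) for CCCP, 0.791 (0.255 to 2.30) for DHA and 0.451 (0.103 to 1.56) for the combination, so no difference was detectable at this depth. FOSB, a second member of that family, had 0.474 FPKM with CCCP, 0.439 with DHA, 0.428 with the combination and 0.574 in control, and all 3 intervals of its ratios to control included 1. FOSB overlaps ERCC1 on the opposite strand, a DNA repair gene at 21.6, 21.6, 22.8 and 19.7 FPKM in the same order, and since the sources used here do not say that strand was counted, reads of the overlap cannot be assigned.

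The FOS family as a whole was carried by FOSL1 and FOSL2, the family members that lack a strong activation domain. FOSL1 had 52.1 FPKM with CCCP, 53.1 with DHA, 60.3 with the combination and 47.6 in control. FOSL2 had 51.1, 42.4, 30.95 and 47.0 FPKM in the same order, and its level with the combination was 0.659 of control (0.633 to 0.686). FOS and FOSB summed to 0.696 FPKM with CCCP, 0.564 with DHA, 0.499 with the combination and 0.732 in control, out of family sums of 104, 96.1, 91.7 and 95.3 FPKM.

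JUN and JUND, the family members that made up most of the JUN-family mRNA, were a little higher in each treated library than in control. JUN, the most potent activator of the family, had 71.2 FPKM with CCCP, 75.3 with DHA, 84.0 with the combination and 60.5 in control. Its ratios to control were 1.18 (1.13 to 1.23), 1.24 (1.19 to 1.30) and 1.39 (1.33 to 1.45). JUND, which is known for steadier expression than the other family members, had 57.0 FPKM with CCCP, 52.8 with DHA, 58.7 with the combination and 46.6 in control, with ratios of 1.22 (1.14 to 1.31), 1.13 (1.06 to 1.21) and 1.26 (1.18 to 1.35). None of these reached 2-fold. The log2 ratio of JUND for DHA was 0.18 as deposited and 0.08 after scaling to equal totals.

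JUNB, a family member that can restrain JUN activity, was lower where CCCP was present. It had 14.5 FPKM with CCCP, 27.3 with DHA, 19.6 with the combination and 29.5 in control, so both libraries with CCCP lay below both without it. The ratio to control was 0.491 (0.438 to 0.549) for CCCP, 0.926 (0.845 to 1.01) for DHA and 0.666 (0.602 to 0.737) for the combination. The combination stood at 1.36 (1.20 to 1.54) of CCCP alone and at 0.720 (0.648 to 0.799) of DHA alone. JUNB overlaps HOOK2 on the opposite strand, which had 4.93 FPKM with CCCP, 4.70 with DHA, 4.92 with the combination and 4.48 in control, and the same limit on strand applies. Within the JUN family, JUNB made up 10.1% of the summed FPKM with CCCP, 17.6% with DHA, 12.1% with the combination and 21.6% in control, while the family sum was 143, 155, 162 and 137 FPKM.

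**Figure D2:**
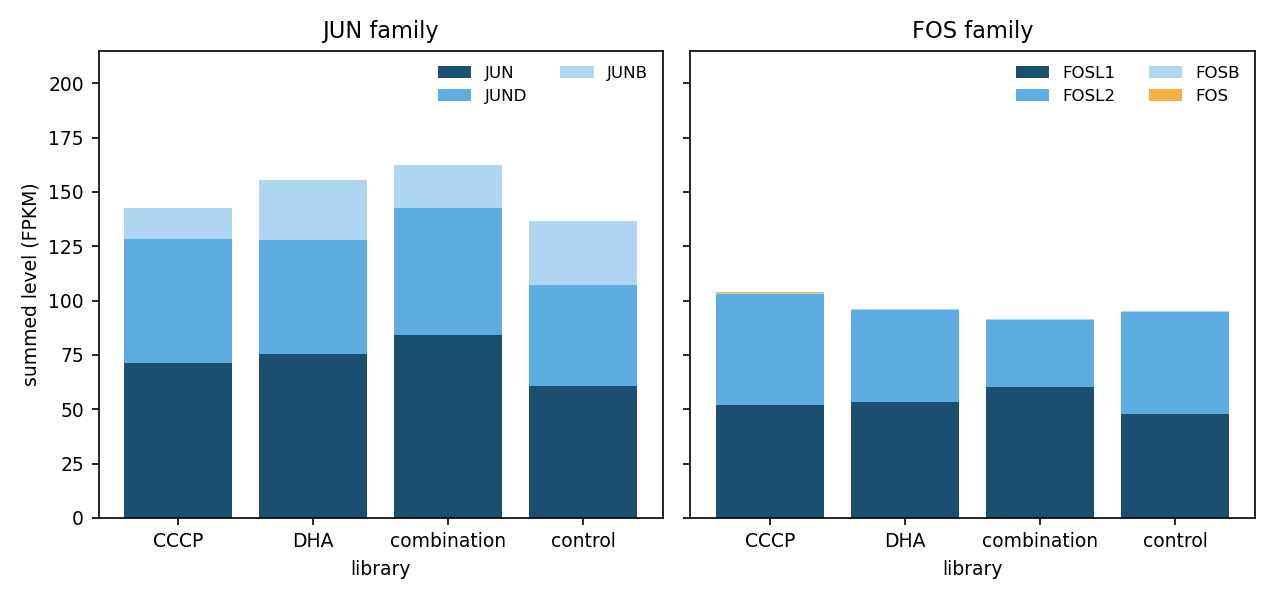
Summed FPKM of the JUN family (left) and the FOS family (right), stacked by gene, in the CCCP, DHA, combination and control libraries. JUNB is a narrower layer with CCCP and the combination (10.1% and 12.1% of the family) than in control (21.6%), and FOS and FOSB are barely visible beside FOSL1 and FOSL2.

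EGR1, the zinc finger factor known to be induced by serum and ERK signalling, was lower where DHA was present. It had 1.81 FPKM with CCCP, 0.962 with DHA, 0.720 with the combination and 1.95 in control, from 95, 52, 39 and 119 reads. Both libraries with DHA lay below both without it. The ratio to control was 0.930 (0.703 to 1.23) for CCCP, 0.494 (0.349 to 0.689) for DHA and 0.370 (0.251 to 0.535) for the combination. The combination was at 0.397 (0.266 to 0.583) of CCCP alone, and its ratio to DHA alone, 0.749 (0.481 to 1.16), included 1. Of 6 genes of the EGR family and its corepressors, NAB1 and NAB2, which repress EGR factors, were the measured ones, and neither was 2-fold apart from control in a treated library.

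IER2, the small nuclear regulator, had 7.50 FPKM with CCCP, 10.5 with DHA, 7.70 with the combination and 9.03 in control. It was slightly lower where CCCP was present and slightly higher with DHA alone. The ratios to control were 0.831 (0.727 to 0.948), 1.16 (1.03 to 1.31) and 0.852 (0.747 to 0.971) in the order CCCP, DHA, combination. Its log2 ratio for DHA was 0.20 as deposited and 0.11 after scaling to equal totals.

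KLF4, a zinc finger factor known for growth arrest in epithelia and for pluripotency, showed the widest range of the 8 measured members. It had 2.14 FPKM with CCCP, 5.41 with DHA, 10.04 with the combination and 2.95 in control, from 131, 341, 634 and 210 reads. CCCP alone was the lowest library and the combination the highest. The ratio to control was 0.727 (0.580 to 0.908) for CCCP, 1.83 (1.54 to 2.19) for DHA and 3.40 (2.91 to 3.999) for the combination, and the combination was 4.68-fold above CCCP alone (3.88 to 5.70) and 1.86-fold above DHA alone (1.62 to 2.12).

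KLF6, a related zinc finger factor studied as a growth suppressor, was highest with DHA and in control. It had 17.7 FPKM with CCCP, 22.04 with DHA, 14.3 with the combination and 21.8 in control, so the DHA and control libraries did not differ beyond counting error and the libraries with CCCP were lower. Ratios to control were 0.810 (0.762 to 0.860), 1.01 (0.955 to 1.07) and 0.655 (0.615 to 0.698), in the order CCCP, DHA, combination. The log2 ratio for DHA was 0.01 as deposited and -0.08 after scaling to equal totals. The combination was at 0.809 of CCCP alone and 0.648 (0.607 to 0.692) of DHA alone.

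MYC, the growth regulator, was highest with the combination. It had 62.9 FPKM with CCCP, 78.1 with DHA, 103 with the combination and 63.0 in control. With CCCP it was at 0.999 of control (0.952 to 1.05), a log2 ratio that scaling to equal totals put at -0.11, while DHA stood at 1.24 (1.19 to 1.30) and the combination at 1.64 (1.58 to 1.71). The combination was 1.65-fold above CCCP alone (1.57 to 1.72) and 1.32-fold above DHA alone (1.27 to 1.38).

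**Figure D3:**
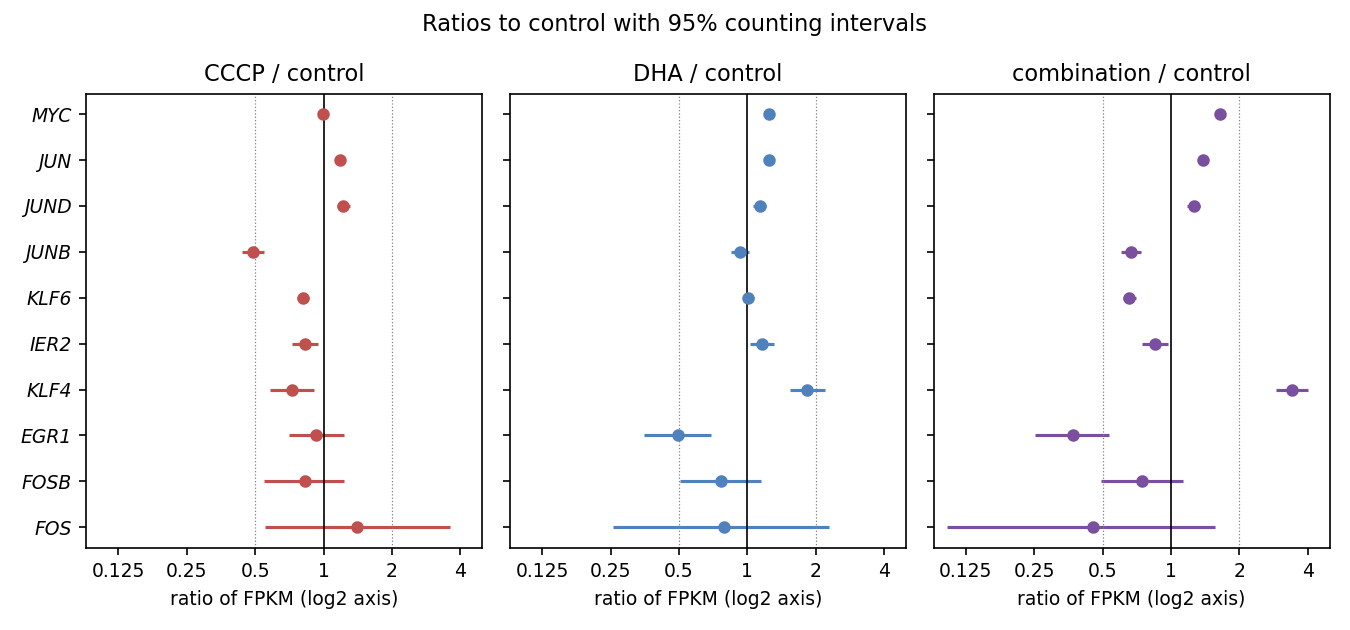
Ratios of FPKM to control for the 10 genes in the CCCP, DHA and combination libraries on a log2 axis, with 95% counting intervals as bars and 2-fold dotted. KLF4 lies at 3.40 and EGR1 at 0.370 with the combination, and JUNB at 0.491 with CCCP.

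The size rule counted a gene at 2-fold or more on log2(FPKM + 0.5), a scale that pulls low genes towards no change, so EGR1 with DHA (log2 -0.74) did not meet it. With CCCP, 0 of the 10 members were 2-fold higher and 1 was lower (JUNB, log2 -1.001), where 3.21% of the 13678 measured genes were higher and 2.32% lower. With DHA, 0 members were counted in either direction, against 2% higher and 1.86% lower among all genes. With the combination, KLF4 was counted as higher (log2 1.61) and EGR1 as lower (log2 -1.005), against 4.52% and 5.44%. JUNB and EGR1 lay just past the line and were not counted with a pseudocount of 1, and EGR1 in the combination against CCCP, at -0.92, lay just short of it.

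For the combination against CCCP alone, KLF4 was counted as higher (log2 1.996) and 0 members as lower, against 3.46% and 4.94% of all genes. For the combination against DHA alone, 0 members were counted, against 3.27% and 3.63%. Among protein-coding genes alone the shares were smaller, and for CCCP they were 0.661% higher and 0.569% lower, for DHA 0.358% and 0.0734%, and for the combination 2.18% and 3.73%. At a limit of 1.5-fold in either direction, 1 member was counted for CCCP, 2 for DHA, 4 for the combination, 3 for the combination against CCCP and 2 for the combination against DHA, where 14.3%, 8.58%, 23.8%, 21.3% and 17% of all measured genes were. The members' median log2 ratio to control was -0.11 for CCCP, 0.10 for DHA and -0.21 for the combination, beside 0, 0 and 0.01 over all measured genes. The first 3 comparisons share the control library.

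The libraries allow a value for how far the combination lay from the product of the single-compound ratios. KLF4 would have had 3.93 FPKM under that product and had 10.04, a log2 departure of 1.22 with the pseudocount and 1.35 (0.985 to 1.72) without. JUNB had 19.6 FPKM against 13.4 (log2 0.55, 0.33 to 0.77) and MYC 103 against 78.0 (log2 0.41, 0.32 to 0.50). Scaling to equal totals put the departure of MYC at log2 0.58, beyond that interval. KLF6 lay below the product, at 14.3 FPKM against 17.8 (log2 -0.32, -0.45 to -0.19), and at log2 -0.13 after scaling to equal totals. JUND was at -0.14 (-0.27 to -0.0038) and JUN at -0.08 with an interval that included 0, and both values were above 0 (0.04 and 0.10) after scaling to equal totals. The intervals of EGR1, IER2, FOS and FOSB included 0, and that of FOS was widest (log2 -1.29, -3.44 to 0.85, from 4 to 12 reads per library). On the scale with the pseudocount, where FOS is at -0.26, KLF4 was the 1 member of 10 with a departure of at least 1 above the product and 0 lay as far below, against 3.77% and 4.42% of all measured genes.

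**Figure D4:**
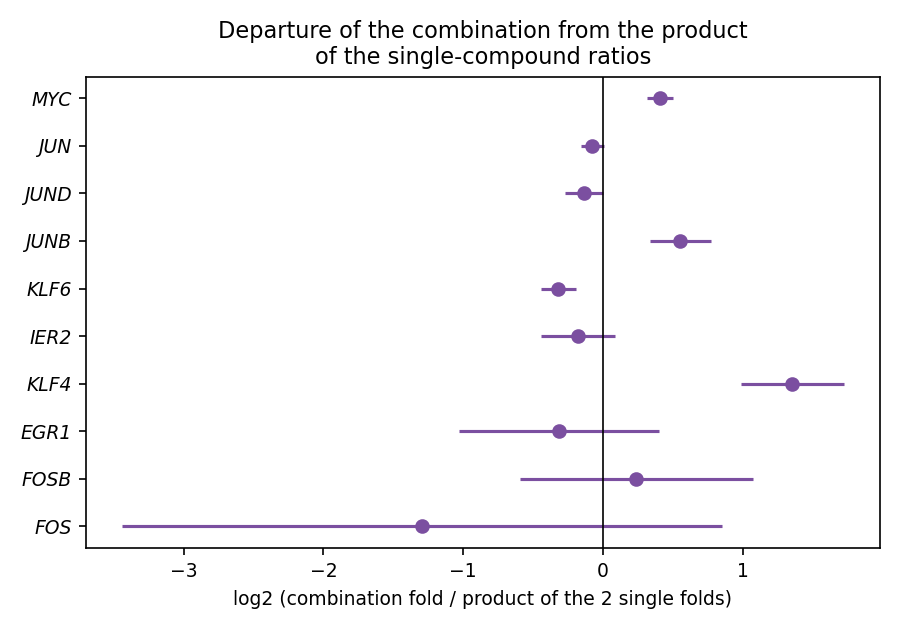
Log2 of the combination's ratio to control over the product of the CCCP and DHA ratios, without a pseudocount, for the 10 genes, with 95% counting intervals as bars. KLF4 (1.35), JUNB (0.55) and MYC (0.41) lie above 0 and KLF6 (-0.32) below.

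An additive fit with limma-trend over all 13678 genes, in which the departure from additivity stands in for the spread between replicates at 1 residual degree of freedom, called 0 of the 8 measured members for CCCP and 0 for DHA at an adjusted p of 0.05. It called 0.095% of all genes for CCCP and 0.102% for DHA. At an unadjusted p of 0.05, 3 of the 8 members passed for each compound, against 14.5% of all genes for CCCP and 12.1% for DHA. For CCCP these were JUNB (log2 -0.73, SE 0.18, adjusted p = 0.169), KLF6 (-0.45, adjusted p = 0.270) and IER2 (-0.34, adjusted p = 0.337). For DHA they were KLF4 (log2 1.39, SE 0.28, adjusted p = 0.223), EGR1 (-0.83, SE 0.26, adjusted p = 0.334) and MYC (0.51, adjusted p = 0.355). EGR1 was among the members tested only through the libraries without DHA, so its value for DHA is not independent of the 1 FPKM filter. A voom fit on the recovered reads called JUNB for CCCP (adjusted p = 0.00927) and KLF4 for DHA (adjusted p = 0.000299), but it called 685 genes for CCCP and 533 for DHA in all, against 13 and 14 in the limma-trend fit.

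AP-1 has other possible partners, of which 13 of 16 listed genes were measured. Of these 13, 2 were 2-fold higher and 0 lower with CCCP, 1 and 0 with DHA, and 4 and 0 with the combination. Their median log2 ratios were 0.12, 0.16 and 0.29 in the same order. Of all measured genes, 3.21% were higher and 2.32% lower with CCCP, 2% and 1.86% with DHA, and 4.52% and 5.44% with the combination. The same shares serve for the lists below. Those among protein-coding genes alone, given above with the counts of the members, were smaller. ATF3, a stress-induced partner of JUN proteins, had 3.04 FPKM with CCCP, 2.43 with DHA, 6.54 with the combination and 0.992 in control. JDP2, a repressor that pairs with JUN, had 1.74, 3.34, 4.56 and 1.35 FPKM in the same order. The leucine zipper factors MAF (2.95, 1.21, 3.16 and 0.899 FPKM) and MAFF (2.23, 3.62, 5.73 and 2.24 FPKM) completed the 4 counted with the combination. These 4 were named for their ratios, and FOSL2 of the same list was lowest with the combination. ATF3 and MAF met the 1 FPKM filter only in treated libraries, so their counts as higher are not independent of that filter.

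Of 18 listed AP-1 targets, 12 were measured. None was 2-fold apart from control with CCCP or DHA alone. With the combination 3 were higher and 0 lower, against 4.52% and 5.44% of all measured genes. The medians were -0.14 with CCCP, 0.10 with DHA and 0.18 with the combination. The cytokine gene IL6 had 3.15 FPKM with CCCP, 2.08 with DHA, 10.5 with the combination and 1.91 in control. The phosphatase gene DUSP1 had 161, 121, 222 and 94.0 FPKM and the chemokine gene CXCL8 7.48, 17.1, 29.7 and 14.5 FPKM in the same order. CXCL8, like KLF4 and other listed genes, was lowest with CCCP alone and highest with the combination, an order that was not counted over all genes.

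A list of other immediate early genes holds ATF3 and DUSP1 as well. Of 23 measured out of 25, 2 were higher and 0 lower with CCCP, and 1 and 0 with DHA. With the combination 6 were higher and 1 lower, against 4.52% and 5.44% of all measured genes. The medians were 0.22 with CCCP, 0.11 with DHA and 0.42 with the combination. The 1 gene counted as higher with DHA met the 1 FPKM filter in that library alone, and ATF3 met it only in treated libraries. Those counts are not independent of the filter. PPP1R15A, which restores translation after stress, had 42.9 FPKM with CCCP, 41.7 with DHA, 131 with the combination and 27.4 in control. The phosphatase gene DUSP5 had 9.82, 12.9, 32.7 and 8.98 FPKM in the same order. CYR61, a matrix-associated growth factor gene, had 1386, 760, 1249 and 548 FPKM, so it was high in both libraries with CCCP.

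Genes upstream of the members were counted by the same 2-fold rule, which 4.52% of all measured genes met as higher and 5.44% as lower with the combination. None of 7 measured of 7 genes for serum response factor and its cofactors was 2-fold apart in any comparison with control (medians -0.19, -0.06 and -0.09), and none of 11 measured of 12 ERK pathway kinase genes was. Smaller differences lay beyond counting error, as for MRTFA, a serum response factor cofactor, with 5.40 FPKM with CCCP, 5.01 with DHA, 3.69 with the combination and 6.24 in control, and for MAP2K2, a kinase that activates ERK, with 33.2, 26.5, 33.1 and 23.2 FPKM in the same order. Of 13 measured of 15 stress kinase genes upstream of JUN, MAP3K5, a kinase activated by oxidative stress, was the 1 counted, with 3.71 FPKM with CCCP, 3.39 with DHA, 6.83 with the combination and 3.09 in control.

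In the MYC network, 11 of 14 genes were measured. With CCCP and DHA none was 2-fold apart, and with the combination 1 was higher and 1 lower, against 4.52% and 5.44% of all measured genes. MXD1, a MAX partner that represses MYC sites, had 1.35 FPKM with CCCP, 1.22 with DHA, 3.42 with the combination and 1.34 in control, and its relative MXD3 had 5.42, 4.39, 1.29 and 4.85 FPKM in the same order. MAX itself had 11.3, 12.1, 13.8 and 11.5 FPKM. The related gene MYCN had 0 reads in every library.

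All 22 listed MYC targets were measured. With CCCP 0 were 2-fold higher and 3 lower, with a median log2 ratio of -0.43 and 2 of 22 above 0, while MYC itself was at 0.999 of control. With DHA 1 was higher and 0 lower (median 0.08), and with the combination 1 was higher and 2 lower (median 0.20). Among all measured genes 3.21% were higher and 2.32% lower with CCCP, 2% and 1.86% with DHA, and 4.52% and 5.44% with the combination. Against CCCP alone, the combination had 4 higher and 0 lower (median 0.57), where 3.46% and 4.94% of all measured genes were. TFRC, the transferrin receptor, had 12.4 FPKM with CCCP, 28.04 with DHA, 50.9 with the combination and 31.9 in control. SHMT2, a mitochondrial enzyme of serine metabolism, had 33.2, 56.6, 86.4 and 25.8 FPKM, and LDHA, lactate dehydrogenase, 182, 362, 111 and 443 FPKM in the same order. MYC, TFRC and SHMT2 were highest with the combination, and LDHA was lowest there.

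**Figure D5:**
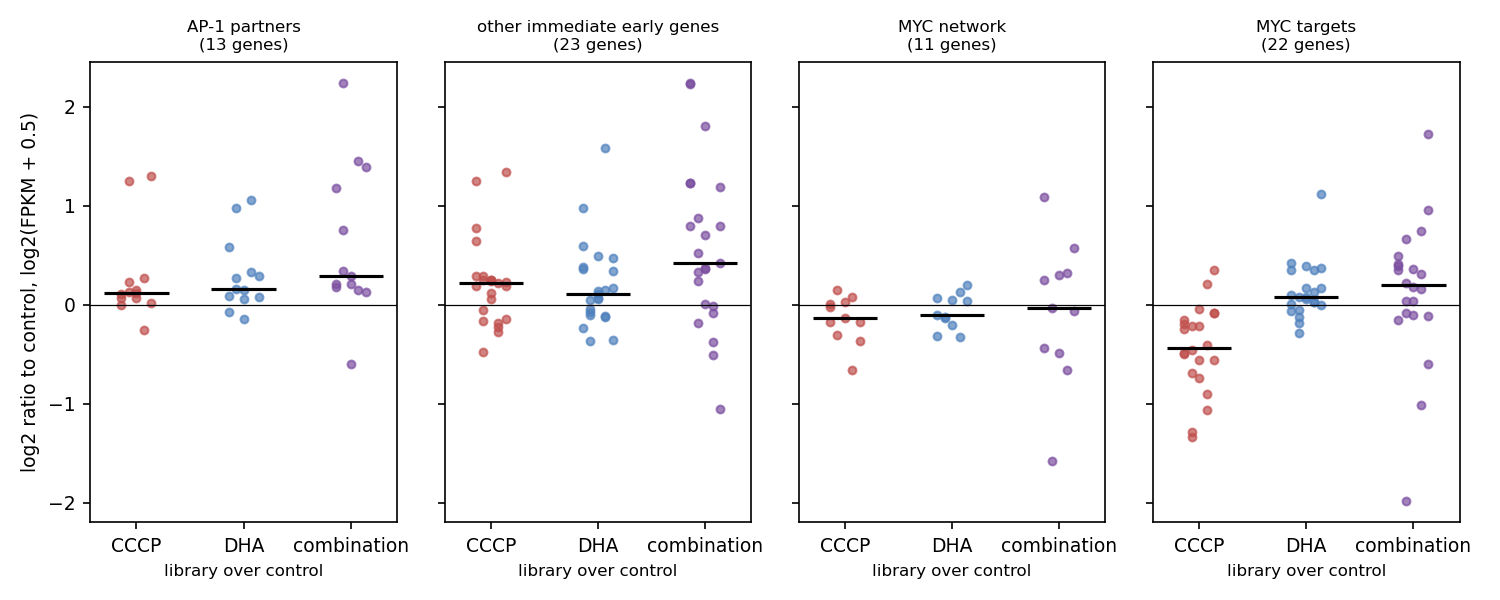
Log2 ratios to control on log2(FPKM + 0.5) in the CCCP, DHA and combination libraries for 4 related gene lists, 1 point per measured gene and a bar at the median. The medians of the MYC targets are -0.43, 0.08 and 0.20, and those of the other immediate early genes 0.22, 0.11 and 0.42.

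Of 16 other KLF and SP factors, 15 were measured. Of these, 1 was 2-fold higher with CCCP, 0 with DHA and 1 with the combination, with 0 lower. Among all measured genes 3.21%, 2% and 4.52% were higher in the same order. KLF15, a metabolic regulator, had 2.40 FPKM with CCCP, 0.693 with DHA, 3.48 with the combination and 0.559 in control. KLF15 met the 1 FPKM filter only in the libraries with CCCP, so its counts as higher there are not independent of that filter. KLF2, which is close to KLF4 in its zinc fingers, had 5.28, 9.92, 14.8 and 8.17 FPKM in the same order. Like KLF4 it was lowest with CCCP alone and highest with the combination. So were CXCL8, TFRC and many further listed genes, MYC targets among them, and the order is not particular to KLF4. How many of all genes have that order was not counted.

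Patterns like those of the members were found as the smallest Euclidean distance over the 3 log2 ratios to control, among the 6760 genes that averaged 5 FPKM or more. Nearest to MYC was MRPL58, a mitochondrial ribosomal protein gene, at a distance of 0.018, and nearest to JUN were BTF3 (0.035) and TXN (0.037). JUND was nearest to DGKA (0.011), IER2 to KRT10 (0.029), KLF6 to CAPN2 (0.030) and JUNB to SFPQ (0.15). KLF4 had no gene as close, its nearest being the pseudogene SBDSP1 at 0.37 and XPOT, an exporter of tRNA, at 0.42. The distance was not scaled by the size of the ratios, and KLF4 had the largest among the members (log2 1.61 with the combination). A larger distance therefore need not mark a distinct pattern. EGR1, FOSB and FOS fell under the mean level used.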

How the data were processed

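The 4 RNA-seq libraries, 1 per group, had been made from total RNA with an Illumina TruSeq kit, per the labels' protocols. The authors deposited FPKM for 58735 genes in each library, per the file headers. For the aligner, the counting tool and the build, nothing is given in the sources used here. All identifiers and 58708 names matched GENCODE 29 (GRCh38), used for exon lengths and overlaps. FPKM times exon length was whole in every gene within 0.01 reads, and the implied library sizes matched median-of-ratios size factors (difference under 1e-06 percent), so depth and counting intervals rest on recovered reads.

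The 10 members, 13 related lists, rules and tests were chosen with earlier results of these data known. Measured genes had at least 1 FPKM in at least 1 library, and log2 ratios used a pseudocount of 0.5. Ratios of FPKM have exact 95% intervals (Clopper-Pearson, on the share of the summed reads), levels exact Poisson intervals, and departures delta-method intervals. The 5 comparisons between libraries had no test. An additive limma-trend fit used all 4 libraries with Benjamini-Hochberg adjustment over all measured genes. It was also run on simulated reads with additive effects only, which cannot show how it behaves for genes that depart from additivity. Up to 4 genes per list were named by the largest absolute log2 ratio to control with a mean of at least 1 FPKM, and network partners freely. MAX, MYCN, FOSL1 and FOSL2 were named as such partners. A gene the rule would name is not reported here. Alternatives were pseudocounts of 0.1 and 1, other filters, other scalings, limits of 1.5-fold and 4-fold, protein-coding genes alone, voom on the recovered reads, and limma with no trend. RefSeq promoter windows came from GRCh38.p14. Fits ran in limma 3.58.1 (R 4.3.3), intervals in scipy 1.17.1, tables in pandas 2.3.3 and numpy 2.4.6, and plots in matplotlib 3.10.9, under Python 3.11.15.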

Additional observations from a re-analysis of the deposited data

Results flagged for a closer look

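KLF4 stood in opposite directions for CCCP without and with DHA. CCCP alone was at 0.727 of control (0.580 to 0.908), while the combination was at 1.86 of DHA alone (1.62 to 2.12), a difference of 1.22 between the log2 ratios with the pseudocount. The difference was not tested, since there was 1 library per group and the intervals cover counting error only.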

How the results depend on the processing

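A ratio cannot change sign with the pseudocount or the fold limit, and median-of-ratios scaling nearly repeats the deposited one. Scaling to equal totals can change a sign, but its shifts were small beside the size of a call. No called value changed sign, which is therefore no test of the calls. Of the ratios to control and departures that met no call, 4 changed sign under equal totals. They were the ratio of KLF6 for DHA and the departures of JUN, JUND and IER2, the last at 0.00091. With a pseudocount of 0.1, the combination against CCCP had 2 members past 2-fold (EGR1 joined KLF4). With a pseudocount of 1, CCCP had 0 and the combination against control had 1. At 1.5-fold, with the shares of all genes given beside the 2-fold counts, the counts were 2 for DHA, 4 for the combination, 3 for the combination against CCCP and 2 for the combination against DHA. At 4-fold the counts were 0 for CCCP, 0 for the combination and 0 for the combination against CCCP. The share of all genes was not computed at 4-fold or with the other pseudocounts, so those counts have no background beside them. Voom on recovered reads called 1 member for CCCP and 1 for DHA. Over all genes the additive fit called 13 for CCCP and 14 for DHA, against 21 and 16 with a pseudocount of 0.1, 24 and 12 with 1, 89 and 34 at a mean of at least 5 FPKM, 685 and 533 with voom, and 0 and 0 with no filter or without trend. The cause was not tested. Scaling to equal totals shifted the median of all genes by -0.09 for CCCP, -0.08 for DHA and -0.02 for the combination and moved 8 ratios and 4 departures beyond their counting intervals. It put the log2 ratio of JUN at 0.12 for CCCP and 0.21 for DHA, that of JUND at 0.18 and 0.08, that of MYC for DHA at 0.21 and that of KLF6 for CCCP at -0.41. Low depth limits FOS, FOSB and EGR1. No paired analysis was possible because each group had 1 library, and for the same reason no library could be left out of the fit.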

Other observations

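Genes that control the lifetime of immediate early mRNAs and proteins, and vascular immediate early genes, were read from the same libraries. Of 8 measured AU-rich mRNA decay factors, none was 2-fold apart from control, with median log2 ratios of -0.16 for CCCP, -0.08 for DHA and -0.35 for the combination, where 2 of 8 were above 0. Of all measured genes, 5.53% were 2-fold apart with CCCP, 3.87% with DHA and 9.96% with the combination. None of 8 is near those shares. ZFP36L2, which binds AU-rich elements, had 15.5 FPKM with CCCP, 11.3 with DHA, 8.62 with the combination and 14.3 in control. Of 11 measured of 12 genes for the turnover of JUN and MYC proteins, 0 were 2-fold apart with CCCP or DHA, against the same 5.53% and 3.87%. With the combination 2 were lower, as 5.44% of all measured genes were. SKP2, a subunit of a ubiquitin ligase for MYC, had 8.64 FPKM with CCCP, 10.4 with DHA, 4.27 with the combination and 12.9 in control, and AURKA, a mitotic kinase, had 25.9, 24.4, 11.8 and 29.4 FPKM in the same order. Both also serve the cell cycle.

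Of 7 immediate early genes with neural or vascular roles, 4 were measured, and 0 were 2-fold higher. Of all measured genes, 3.21% were higher with CCCP, 2% with DHA and 4.52% with the combination. With the combination 2 of these 4 were 2-fold lower, as 5.44% of all measured genes were. THBS1, an inhibitor of vessel growth, had 339 FPKM with CCCP, 513 with DHA, 145 with the combination and 706 in control. EDN1, the vasoconstrictor endothelin, had 6.60, 10.6, 2.88 and 9.83 FPKM in the same order. Both were lowest with the combination, at log2 ratios of -2.28 and -1.61.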
